A study of Mus musculus with 8 samples.

Results

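The miR-378 family is a group of microRNAs that share most of their sequence. In the mouse it is made up of mmu-miR-378a, which is cut from an intron of Ppargc1b, and its paralogues mmu-miR-378b, mmu-miR-378c and mmu-miR-378d. The members were chosen by name from a table of small RNAs of sorted Kupffer cells, with no threshold on a measured value, and 5 of the 1234 entries carried a mouse miR-378 name. These were miR-378a-3p_R+1, miR-378a-5p, miR-378b_R-1, miR-378c_R-1 and miR-378d_1ss6CA, and all 5 were among the 627 entries that passed the filter on low counts. A further 20 entries carried a miR-378 name of another species and were used only to describe the forms of the sequence. The family itself was selected on earlier results of these libraries, so the tests below are not independent of that choice.

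The study compared liver macrophages sorted as Kupffer cells from 4 male Trem2 knockout mice (KO, animals 40, 46, 88 and 90) with the same cells from 4 male littermates labelled as control or WT (animals 35, 37, 80 and 82). Trem2 encodes a lipid-sensing receptor of macrophages. All 8 mice ate a high-fat diet for 8 weeks, beginning when they were 8 weeks old, so the data hold no group on a normal diet. Cells were isolated by flow cytometry, and 1 small RNA library was made per mouse from 1 µg of total RNA; the knockout is not stated to be limited to any cell type, and Trem2 mRNA is not measured in small RNA libraries, so the genotype labels could not be checked. The animal numbers fell into the ranges 80 to 90 and 35 to 46, each with 2 KO and 2 WT mice, and the labels do not say what a range stands for. The ranges were known from earlier results to go with the spread between these libraries.

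A microRNA hairpin gives a mature strand from each arm, named 5p and 3p, and bases 2 to 8 of the loaded strand (the seed) pair with target mRNAs. Ppargc1b encodes PGC-1β, a coactivator of genes for mitochondrial oxidation and lipid synthesis, and both strands of miR-378a have been described in mice as regulators of systemic energy balance, with the mitochondrial enzyme gene Crat and the Mediator gene Med13 among their targets. The paralogues are known mainly from their sequence similarity to miR-378a-3p.

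The mature paralogue sequences are shown because the bases at which they differ decide whether an entry can be assigned to a paralogue. They are the RefSeq sequences on GRCm38.p6, at chr11:88352839-88352858 (plus strand), chr14:46954905-46954925 (minus strand) and chr10:126710355-126710376 (minus strand), written 5′ to 3′ with the seed in capitals.
miR-378b: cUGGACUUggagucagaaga
miR-378c: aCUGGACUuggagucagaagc
miR-378d: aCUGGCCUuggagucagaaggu

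No 2 of these 3 sequences had the same seed. miR-378b begins 1 base later than miR-378c, so its seed is shifted by 1 base, and over their 20 overlapping bases 19 were identical. miR-378c and miR-378d, compared base by base, were identical at 19 of 21 bases, and 1 of the differences lies in the seed. The hairpins show where each mature sequence, in capitals, sits in its precursor. The mature sequence lay at bases 67 to 86 of the 92-base Mir378b hairpin, at bases 4 to 24 of the 99-base Mir378c hairpin and at bases 16 to 37 of the 110-base Mir378d hairpin. The annotated mature strand is thus in the 3′ part of Mir378b and in the 5′ part of Mir378c and Mir378d.
Mir378b hairpin: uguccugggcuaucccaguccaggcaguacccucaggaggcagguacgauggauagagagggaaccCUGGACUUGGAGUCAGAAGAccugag
Mir378c hairpin: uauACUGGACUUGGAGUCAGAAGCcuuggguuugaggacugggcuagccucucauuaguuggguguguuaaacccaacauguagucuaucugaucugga
Mir378d hairpin: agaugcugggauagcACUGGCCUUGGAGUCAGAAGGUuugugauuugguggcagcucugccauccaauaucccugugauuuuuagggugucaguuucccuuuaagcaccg

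In the GENCODE annotation of GRCm38, Mir378a lay on chromosome 18 at 61397835 to 61397900 on the minus strand, within an intron of Ppargc1b and on the same strand as that gene. Mir378b lay on chromosome 11 at 88352773 to 88352864, in an intron of Msi2 but on the opposite strand. Mir378c lay on chromosome 14 at 46954830 to 46954928, in an intron of Samd4 and also on the opposite strand. Mir378d lay on chromosome 10 at 126710282 to 126710391 and overlapped no gene, with the nearest coding gene, Atp23, 158036 bases away. Mir378a was therefore the family's one gene in the sense direction of a coding gene.

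None of the 3 entries named for a paralogue held the bases that set that paralogue apart. The miR-378b_R-1 entry (19 bases) and the miR-378c_R-1 entry (20 bases) were the sequences above without their last base. Both stood whole inside the miR-378a-3p_R+1 entry, which has 22 bases, starting at its base 2 for miR-378b_R-1 and at its base 1 for miR-378c_R-1. The 19 bases of the miR-378b_R-1 entry were also present in both the Mir378b and the Mir378c hairpin.

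The miR-378d_1ss6CA entry (22 bases) differed from RefSeq miR-378d by C6A, counted from 1 at the 5′ end with the RefSeq base first, and so had the seed of miR-378c. It differed from the miR-378a-3p_R+1 entry at 1 base, the last, and it was found in 0 of the 3 hairpins above. The whole RefSeq sequence of miR-378c and of miR-378d stood in 0 of the 1234 entries. That of miR-378b stood in 2 entries, both named for human miR-378c, with a summed count of 38.5 over the 8 libraries. RNA of miR-378b and miR-378c therefore cannot be told apart here from forms of miR-378a-3p with a shorter or altered 3′ end. The same holds for the miR-378d_1ss6CA entry. RefSeq miR-378d itself differs from those forms in the seed, but its whole sequence stood in 0 entries. Whether shorter forms of it were present was not tested. Every value below belongs to the deposited entry and not to a gene.

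Among the 25 entries with a miR-378 name of any species, miR-378a-3p_R+1 held 79.6% of the summed counts. The next was an entry named for human miR-378c, at 6.50%, whose sequence was the miR-378a-3p_R+1 sequence plus 1 base. miR-378d_1ss6CA held 4.53%, miR-378c_R-1 held 2.96% and miR-378a-5p, the other strand of the miR-378a hairpin, held 2.88%. miR-378b_R-1 held 0.0868%, or 403 counts in all. Deposited raw values of miR-378a-3p_R+1 were not whole in 5 libraries, and those of miR-378a-5p in 0. Those of miR-378c_R-1 were not whole in 5 libraries, of miR-378d_1ss6CA in 4 and of miR-378b_R-1 in 3. How reads that match several entries were assigned is not stated.

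Depth ranged from 2129942 to 9443992 counts per library, and a level of 3 counts was worth 0.318 to 1.41 CPM (the count per library total, times 1000000). Levels below are CPM scaled between libraries by TMM factors, without correction for length. The label of Kupffer cells was set against a list of myeloid miRNAs, whose 5 entries summed to between 69010 and 131585 CPM per library. Most of that sum was miR-146a-5p, which averaged 83831 CPM over the 8 libraries, against 4710 CPM for miR-223-3p and 617 CPM for miR-511-3p. One library stood apart in other lists: the hepatocyte list summed to 139454 CPM in WT 37, against 9149 to 41070 CPM in the other 7 libraries. In WT 37 the hepatocyte sum was above the myeloid sum of 115377 CPM. Values that moved most without WT 37 are also given without it.

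miR-378a-3p_R+1 was an abundant microRNA of these cells, ranking between 6 and 31 of the 1234 entries in each library and taking 0.609% to 2.32% of the counts. It stood at 16651, 22296, 5104 and 7341 CPM in KO mice 40, 46, 88 and 90, against 15300.0, 21263, 9802 and 6543 CPM in WT mice 35, 37, 80 and 82. The mean was 12848 ± 8042 CPM in KO mice and 13227 ± 6462 CPM in WT mice (SD, n = 4 each). Both the highest and the lowest value came from KO mice, and the genotypes overlapped.

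miR-378a-5p, the strand less often kept from the same hairpin, was measured at 515, 497, 237 and 329 CPM in KO mice 40, 46, 88 and 90, against 399, 455, 484 and 351 CPM in WT mice 35, 37, 80 and 82. The lowest library was KO 88 and the highest KO 40, so the WT libraries lay inside the range of the KO libraries. The mean was 394 ± 135 CPM in KO mice and 422 ± 59.0 CPM in WT mice (SD, n = 4 each). It varied 2.18-fold between the lowest and highest library, against 4.37-fold for miR-378a-3p_R+1.

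miR-378c_R-1, the entry without the last base of miR-378c, was at 935, 1259, 114 and 145 CPM in the KO libraries in the same order, against 613, 1271, 151 and 132 CPM in the WT libraries. In each genotype 2 libraries were high and 2 were low, with an 11.2-fold distance between the lowest and the highest of the 8. Its mean was 613 ± 574 CPM in KO mice and 542 ± 535 CPM in WT mice (SD, n = 4 each).

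miR-378d_1ss6CA was at 1057, 1311, 267 and 407 CPM in the KO libraries, against 935, 1247, 516 and 320 CPM in the WT libraries. The same 2 libraries of each genotype were again the higher ones. miR-378b_R-1, the rarest member, was at 22.6, 33.0, 5.14 and 8.60 CPM in KO mice, against 20.6, 28.9, 4.93 and 4.14 CPM in WT mice. Its raw counts ran from 16.0 to 75.3 per library, so counting error weighs most on this entry.

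**Figure D1:**
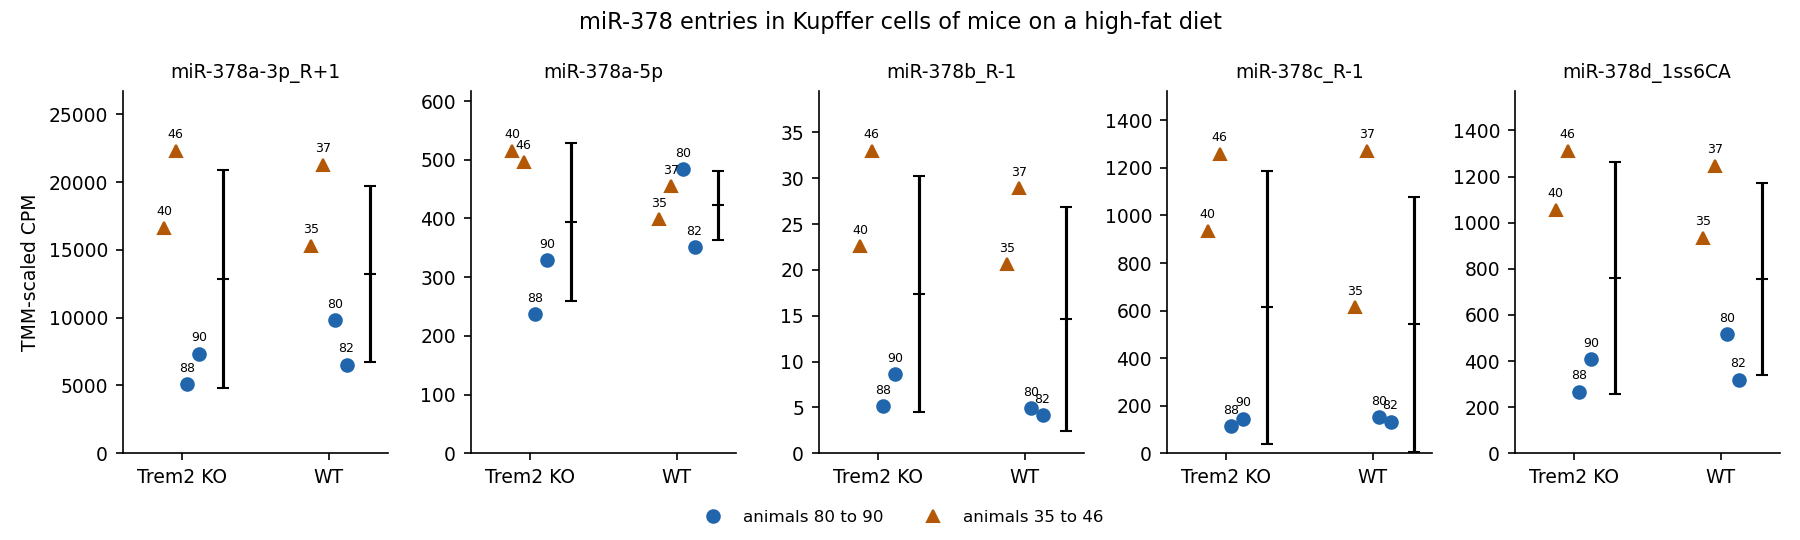
TMM-scaled CPM of the 5 mouse miR-378 entries in each library (1 panel per entry, linear axes starting at 0), with KO left of WT, symbols for the animal number ranges, animal numbers beside the points, and the mean with SD over 4 libraries as a bar beside each group. In both genotypes the miR-378a-3p_R+1 libraries of range 80 to 90 (5104 to 9802 CPM) sit below those of range 35 to 46 (15300.0 to 22296 CPM).

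Levels of the family were first compared by genotype. No member was called: the edgeR quasi-likelihood test over all 627 tested entries gave an adjusted p of 0.997 for each of the 5, and 0% of all tested entries were called. Among all tested entries, 2 had an unadjusted p under 0.05 in edgeR, 6 in DESeq2 and 3 in limma, with 0 called by any of the 3. The log2 difference, KO minus WT, was -0.04 ± 0.52 (SE) for miR-378a-3p_R+1, with a 95% interval of -1.20 to 1.12. With the animal number range as a block it was -0.15 ± 0.24, with an interval of -0.69 to 0.39 that holds neither a doubling nor a halving, and the common dispersion was 0.276, against 0.582 with genotype alone. In both fits the adjusted p stayed above 0.05 for 5 of 5 members.

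The strand miR-378a-5p had the narrowest interval without the block, -0.86 to 0.66, around a log2 difference of -0.10 ± 0.34. The log2 differences of the paralogue-named entries were 0.25 ± 0.83 for miR-378b_R-1, 0.18 ± 0.92 for miR-378c_R-1 and 0.01 ± 0.58 for miR-378d_1ss6CA. The median over the 5 members was 0.01, and over all 627 entries it was -0.04. Values of the genotypes overlapped for 5 of 5 members, while 0.797% of all tested entries had no overlap.

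The summed level of the 5 entries was 14633 ± 9252 CPM in KO mice and 14960 ± 7435 CPM in WT mice (SD, n = 4 each). In bulk libraries of sorted cells, fewer cells of a type and less RNA per cell cannot be told apart.

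The larger difference within the family went with the animal number. In a fit with genotype and number range, 4 of the 5 entries were lower in range 80 to 90 than in range 35 to 46 (edgeR, adjusted p under 0.05). In the same comparison 32.4% of the 627 entries were called in either direction and 15.8% of the 627 as lower in range 80 to 90, so many other microRNAs differed too. The median log2 difference was -1.60 over the 5 members and -0.04 over all tested entries. The 4 called entries were miR-378a-3p_R+1 and the paralogue-named entries, which cannot be told apart here from forms of it. Neither the count of 4 nor the median therefore rests on separate RNAs known to be distinct. The range is known only as a number on the mouse, and what else differed between the ranges was not tested.

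miR-378a-3p_R+1 averaged 7197 ± 1968 CPM in range 80 to 90 and 18877 ± 3422 CPM in range 35 to 46 (SD, n = 4 each). Its log2 difference was -1.40 ± 0.25 (SE; edgeR adjusted p = 0.00242). The fall was 2.62-fold on the means, and every library of range 80 to 90 lay below every library of range 35 to 46. Leaving out any 1 library moved the log2 difference between -1.57 and -1.26.

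miR-378c_R-1 had the largest log2 difference of the 5, and averaged 135 ± 16.3 CPM in range 80 to 90 and 1019 ± 312 CPM in range 35 to 46 (SD, n = 4 each). Its log2 difference was -2.91 ± 0.28 (edgeR adjusted p = 0.000104). miR-378b_R-1 averaged 5.70 ± 1.98 CPM in range 80 to 90 and 26.3 ± 5.69 CPM in range 35 to 46, with a log2 difference of -2.22 ± 0.43 (edgeR adjusted p = 0.00412). Both entries are contained in the sequence of miR-378a-3p_R+1 and end before it.

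miR-378d_1ss6CA, which has the full length, averaged 377.6 ± 109 CPM in range 80 to 90 and 1138 ± 173 CPM in range 35 to 46 (SD, n = 4 each), with a log2 difference of -1.60 ± 0.25 (edgeR adjusted p = 0.00145). The exception was miR-378a-5p, at 350.0 ± 102 CPM in range 80 to 90 and 467 ± 51.5 CPM in range 35 to 46. Its log2 difference of -0.44 ± 0.24 did not pass (edgeR adjusted p = 0.189), its interval was -0.98 to 0.11, and its ranges overlapped. The other 4 members did not overlap between ranges, being lower in each library of range 80 to 90. Of all tested entries 41.1% had no overlap in either direction, and 19.8% had none and were lower in range 80 to 90.

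Without WT 37 alone, 4 of the 5 members were still called. The calls over the whole table fell to 129 of 701 tested entries (56 lower), against 203 of 627 (99 lower) with all 8 libraries. Without both WT 37 and KO 46, an alternative added after the values were seen, 3 of the 5 were called, and miR-378b_R-1 was at -1.94 (edgeR adjusted p = 0.0783). In that fit 70 of 665 tested entries were called in all (34 lower).

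**Figure D2:**
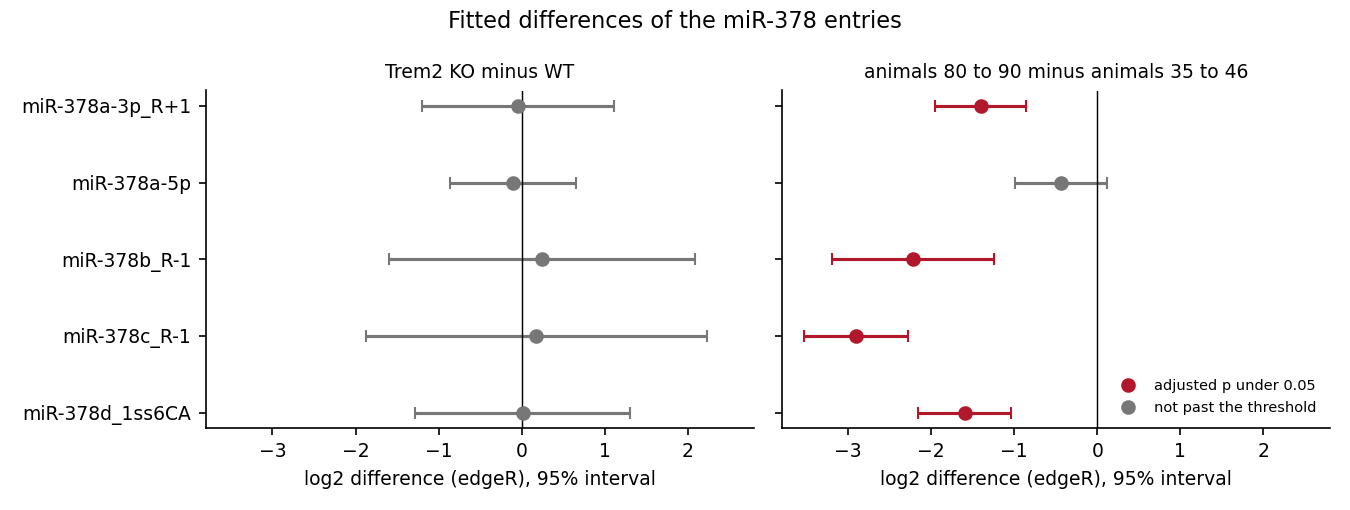
Log2 differences of the 5 entries, KO minus WT in the left panel and range 80 to 90 minus 35 to 46 in the right panel, each with its 95% interval from the edgeR fit; red points had an adjusted p under 0.05. All 5 intervals include 0 for genotype, and 4 of the 5 lie below 0 for the number range, with miR-378a-5p reaching to 0.11.

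Within each range the genotypes were compared with 2 mice a side, and no member was called. In range 80 to 90 the log2 difference, KO minus WT, was -0.38 ± 0.33 (SE) for miR-378a-3p_R+1 and -0.54 ± 0.34 for miR-378a-5p. In range 35 to 46 it was 0.15 ± 0.29 for miR-378a-3p_R+1 and 0.30 ± 0.25 for miR-378a-5p, and 5 of 5 members had positive values there. A term for the difference between these effects was past the threshold for 0 of 5 members and 0% of all entries; the lowest unadjusted p among the members was that of miR-378a-5p, with a term of -0.81 ± 0.43 (edgeR adjusted p = 0.930).

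Ratios within a library do not depend on how libraries were scaled, and they set miR-378a-3p_R+1 against its own 5p strand and against the paralogue-named entries. Relative to miR-378a-3p_R+1, miR-378a-5p stood at 3.09%, 2.23%, 4.64% and 4.48% in KO mice 40, 46, 88 and 90, against 2.61%, 2.14%, 4.93% and 5.37% in WT mice 35, 37, 80 and 82. miR-378c_R-1 stood at 5.61%, 5.64%, 2.23% and 1.97% in the KO libraries, against 4.01%, 5.98%, 1.54% and 2.02% in the WT libraries. The 5p strand was relatively high in the very libraries in which miR-378c_R-1 was relatively low.

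miR-378d_1ss6CA kept the steadiest proportion, at 5.24% to 6.35% of miR-378a-3p_R+1 in KO libraries and 4.88% to 6.11% in WT libraries. miR-378b_R-1 stood at 0.101% to 0.148% in KO libraries and 0.0502% to 0.135% in WT libraries. Of the 4 log2 ratios of miR-378a-3p_R+1 to another member, 0 passed the test between genotypes. The difference, KO minus WT, was 0.01 against miR-378a-5p (exact two-sided permutation test over 70 assignments, p = 0.971, adjusted over the 4 ratios 0.971). It was -0.51 against miR-378b_R-1 (exact permutation p = 0.286, adjusted 0.876), -0.22 against miR-378c_R-1 (p = 0.657, adjusted 0.876) and -0.06 against miR-378d_1ss6CA (p = 0.571, adjusted 0.876).

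Between the number ranges, a comparison added after the ratios had been seen, each of the 4 ratios was without overlap. miR-378a-5p averaged 4.85 ± 0.391% of miR-378a-3p_R+1 in range 80 to 90 and 2.52 ± 0.434% in range 35 to 46 (SD, n = 4 each). miR-378c_R-1 averaged 1.94 ± 0.289% in range 80 to 90 and 5.31 ± 0.885% in range 35 to 46, and miR-378d_1ss6CA averaged 5.24 ± 0.273% in range 80 to 90 and 6.05 ± 0.228% in range 35 to 46. The 3p strand was thus lower relative to its 5p partner in range 80 to 90, and the shorter 3p entries were lower still.

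The log2 ratio of miR-378a-3p_R+1 to the other member, range 80 to 90 minus 35 to 46, was -0.96 for miR-378a-5p, 0.82 for miR-378b_R-1, 1.45 for miR-378c_R-1 and 0.21 for miR-378d_1ss6CA. Each had an exact two-sided permutation p of 0.0286, adjusted 0.0286, which is the smallest that 70 assignments allow. Ratios already seen to be without overlap between the ranges must give this value, so the test adds nothing to that absence of overlap. The ratios also share miR-378a-3p_R+1 and are not independent of each other. How often ratios of other entries lacked overlap between the ranges was not tested. With the ranges permuted within genotypes, each p was 0.0556, the smallest that 36 assignments allow.

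**Figure D3:**
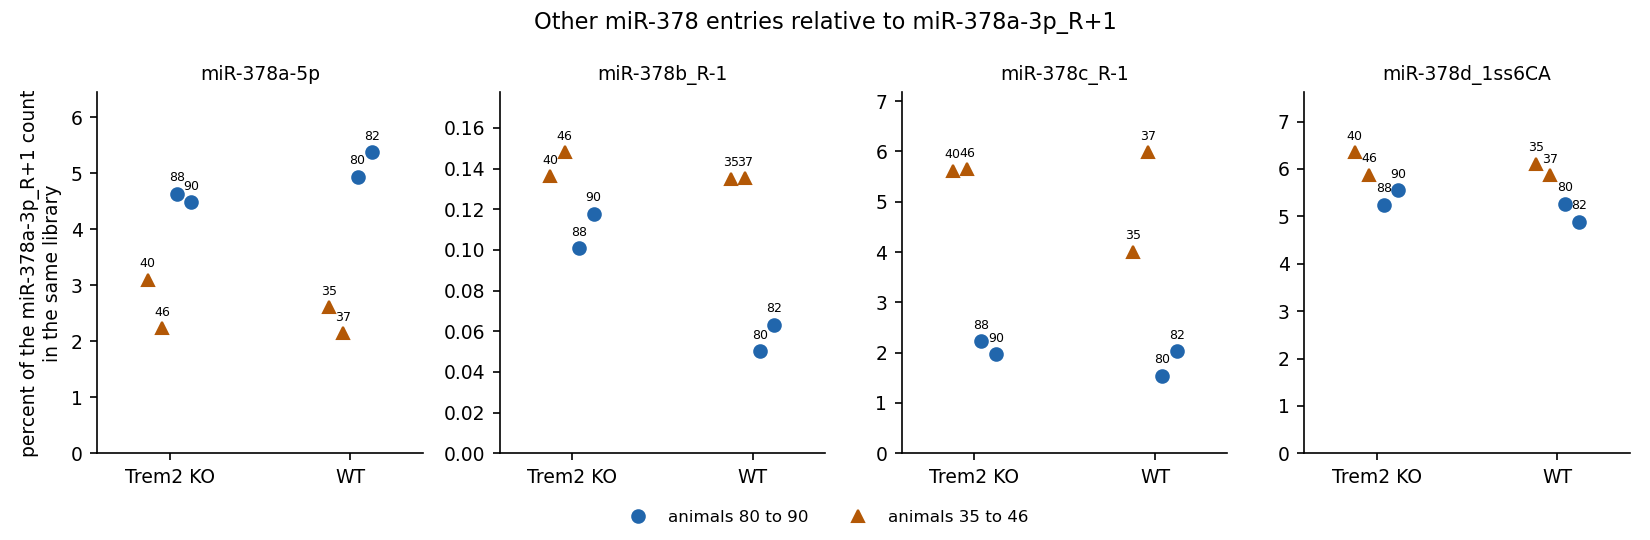
Count of each of the other 4 entries as a percent of the miR-378a-3p_R+1 count of the same library, with KO left of WT, symbols for the number ranges and animal numbers beside the points (linear axes starting at 0). In both genotypes the libraries of range 80 to 90 are the upper ones for miR-378a-5p (4.48% to 5.37%) and the lower ones for miR-378c_R-1 (1.54% to 2.23%).

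The forms of the 3p strand were described over the 12 entries, of any species name, that contain the 19 letters common to the 4 mouse entries of the 3p type. miR-378a-3p_R+1 made up 84.0% to 85.2% of their sum in range 80 to 90 and 79.9% to 80.6% in range 35 to 46. The entry that is 1 base longer made up 5.64% to 6.69% in range 80 to 90 and 6.65% to 7.57% in range 35 to 46, and miR-378c_R-1, which is 2 bases shorter, 1.29% to 1.88% in range 80 to 90 and 3.23% to 4.78% in range 35 to 46. Another entry of 23 bases, named for bovine miR-378, went the other way, at 1.90% to 2.66% in range 80 to 90 and 1.55% to 1.85% in range 35 to 46. By length, the 5 entries under 22 bases made up 2.24% to 3.13% in range 80 to 90 and 5.08% to 6.62% in range 35 to 46, while the 2 entries over 22 bases overlapped, at 7.68% to 9.35% in range 80 to 90 and 8.19% to 9.38% in range 35 to 46. As summed classes, the entries under 22 bases thus separated the ranges and those over 22 bases did not. The 2 longer entries went opposite ways, and the bovine-named one was without overlap between ranges. The miR-378a-3p_R+1 form stayed dominant in every library. Of the 12 entries, 8 begin with the same 20 bases as miR-378a-3p_R+1. The 12 were chosen for holding the 19 shared letters, so they could differ only at their ends. With the 12 entries summed, the log2 difference was -0.14 for KO minus WT and -1.48 for range 80 to 90 minus 35 to 46, as descriptions with no test.

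Of the 171 other mouse entries that averaged 100 CPM or more, the 5 whose log2 levels went most closely with miR-378a-3p_R+1 over the 8 libraries were miR-674-5p_R+1 (Pearson r = 0.980), miR-185-5p (0.975), miR-22-3p (0.950), miR-27b-3p (0.945) and miR-21a-3p_R-1 (0.945). Within the family, r was 0.996 for miR-378d_1ss6CA, 0.966 for miR-378c_R-1, 0.929 for miR-378b_R-1 and 0.83 for miR-378a-5p, so the 5p strand of the same hairpin had the lowest r of the other 4 members. The paralogue-named entries cannot be told apart from forms of miR-378a-3p and may share reads with it, so their r is no measure of separate genes changing together. The points share libraries and scaling. All 5 outside entries were called lower in range 80 to 90, beside 15.8% of all tested entries. They were picked for following miR-378a-3p_R+1, which was itself without overlap between the ranges, so this count was largely set by the choice. Of the 5, miR-674-5p_R+1 and miR-21a-3p_R-1 were called with any 1 library left out. Without WT 37 the other 3 were not called, with edgeR adjusted p of 0.0754 for miR-185-5p, 0.185 for miR-22-3p and 0.137 for miR-27b-3p. After removal of the range means, r with miR-378a-3p_R+1 was 0.853 for miR-674-5p_R+1 and 0.863 for miR-185-5p, and 0.506 to 0.738 for the other 3.

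miR-22-3p, an abundant miRNA of many tissues, averaged 23223 ± 3458 CPM in range 80 to 90 and 36630.0 ± 4417 CPM in range 35 to 46 (SD, n = 4 each; log2 difference -0.66 ± 0.20, edgeR adjusted p = 0.029). It was called in 1 of 8 fits that left out 1 library, with adjusted p of 0.0219 to 0.185 and log2 differences of -0.74 to -0.53. miR-674-5p_R+1 averaged 154 ± 50.2 CPM in range 80 to 90 and 522 ± 109 CPM in range 35 to 46 (log2 difference -1.77 ± 0.29). miR-21a-3p_R-1, the less abundant strand of the miR-21a hairpin, averaged 152 ± 19.9 CPM in range 80 to 90 and 1056 ± 299 CPM in range 35 to 46 (log2 difference -2.80 ± 0.26).

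miRNAs reported to act on lipid and mitochondrial metabolism were taken as a list of 26 names, of which 24 had an entry and 22 were tested. For genotype 0 of the 22 were called, with a median log2 difference of -0.03. Between ranges 5 of the 22 were higher in range 80 to 90 and 7 were lower, with a median log2 difference of -0.37. That is 54.5% of the list, beside 32.4% of all tested entries, where 104 were higher and 99 lower. All list entries are mouse-named, and in a fit of mouse-named entries only, 187 of 394 were called, 109 higher and 78 lower. Whether the list differs from that share was not tested. Of the 12 list entries called, 5 were called with any 1 library left out. Of the 3 most abundant, miR-29a-3p had a log2 difference of -0.20 ± 0.20 (edgeR adjusted p = 0.477), and miR-26a-5p rose by 1.15 ± 0.23 on the log2 scale (adjusted p = 0.00503).

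The other was miR-122-5p, the main hepatocyte miRNA, with a log2 difference of -2.44 ± 0.70 (edgeR adjusted p = 0.0243) that rested on WT 37. That library held 115597 CPM of it, against 8762 to 32432 CPM in the other 3 libraries of range 35 to 46. Without WT 37 the log2 difference was -1.17 ± 0.49 (adjusted p = 0.135), and without KO 40, KO 88 or WT 82 it also missed the threshold, with adjusted p of 0.104, 0.0612 and 0.065.

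Lists of miRNAs enriched in other cell types that a liver sort could hold were compared between the number ranges in the same way, where 15.8% of all tested entries were called lower in range 80 to 90 and 32.4% in either direction. In the fit of mouse-named entries only, 78 of 394 were called lower and 187 of 394 in either direction. The 4 erythroid entries summed to 636 to 2516 CPM in range 80 to 90 and 5060 to 7387 CPM in range 35 to 46, without overlap. Of the 4, 2 were called lower, miR-451a (log2 difference -3.32 ± 0.45) and miR-486a-5p (-1.27 ± 0.28), both also with any 1 library left out. The other 2 were not called, miR-144-3p at -0.61 ± 0.58 (edgeR adjusted p = 0.452) and miR-144-5p at 0.44 ± 0.60 (adjusted p = 0.611). Most of the sum in range 35 to 46 was miR-451a, which averaged 4794 ± 887 CPM there and 547 ± 403 CPM in range 80 to 90 (SD, n = 4 each). The hepatocyte list, with 7 entries, summed to 9149 to 14221 CPM in range 80 to 90 and 12228 to 139454 CPM in range 35 to 46, which overlap, and 1 of the 7, miR-122-5p, was called. The second most abundant of the 7, miR-192-5p, had a log2 difference of -1.25 ± 0.50 (edgeR adjusted p = 0.0819), and of -0.35 ± 0.36 without WT 37 (adjusted p = 0.534).

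Muscle, a tissue rich in miR-378, was represented by 4 tested entries, whose sum was 24.4, 267, 11.2 and 21.3 CPM in KO 88, KO 90, WT 80 and WT 82 of range 80 to 90, against 54.2 to 118 CPM in range 35 to 46. KO 90 alone lay above range 35 to 46, and the other 3 lay below it. The most abundant entry, miR-1a-3p, was at -0.12 on the log2 scale, with an SE of 1.20 (edgeR adjusted p = 0.961), and without KO 90, which held 258 CPM of it, at -2.06 ± 0.57 (adjusted p = 0.0344). Of the 4, 1 was called, miR-133a-3p, with 2.52 ± 1.13 CPM in range 80 to 90 and 27.8 ± 9.98 CPM in range 35 to 46 (SD, n = 4 each). The muscle sum stayed below the level of miR-378a-3p_R+1 by more than an order of magnitude in every library. Whether muscle RNA added to the miR-378 entries was not tested.

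The brown adipocyte list summed to 573 to 864 CPM in range 80 to 90 and 89.5 to 163 CPM in range 35 to 46, a sum made up mostly of miR-455-3p. That entry averaged 656 ± 128 CPM in range 80 to 90 and 72.5 ± 7.18 CPM in range 35 to 46 (SD, n = 4 each) and was called higher. miR-365-3p was called higher too, at 2.02 ± 0.62 on the log2 scale (edgeR adjusted p = 0.0306), but in 4 of 8 fits that left out 1 library it was not, when that was KO 46, KO 88, KO 90 or WT 35 (adjusted p up to 0.0828). The other 2 entries had negative log2 differences, -0.13 ± 0.36 for miR-455-5p and -2.56 ± 1.39 for miR-193b-3p, and neither passed the test.

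Of the 5 myeloid entries 2 were called higher in range 80 to 90, miR-142a-5p (log2 difference 0.79 ± 0.18) and miR-223-3p (1.01 ± 0.22), and 1 was called lower, miR-511-3p (-0.63 ± 0.21). The call of miR-142a-5p was lost without WT 37 (edgeR adjusted p = 0.0545), and that of miR-511-3p without any 1 library other than WT 80 (adjusted p up to 0.194). Their most abundant entry, miR-146a-5p, a brake on inflammatory signalling, had a log2 difference of -0.31 ± 0.28 (edgeR adjusted p = 0.424). The 2 endothelial entries, the strands of miR-126a, had 0 called, with log2 differences of -0.01 ± 0.19 for miR-126a-3p and 0.32 ± 0.21 for miR-126a-5p.

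For genotype 0 entries of any of these lists were called. The part of the erythroid, hepatocyte or other cell type miRNAs in the range difference of the miR-378 entries was not tested. Without WT 37, the log2 difference of miR-378a-3p_R+1 was -1.30 ± 0.32 (edgeR adjusted p = 0.0222). That fit kept KO 40 of range 35 to 46, which held 41070 CPM of the hepatocyte list.

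**Figure D4:**
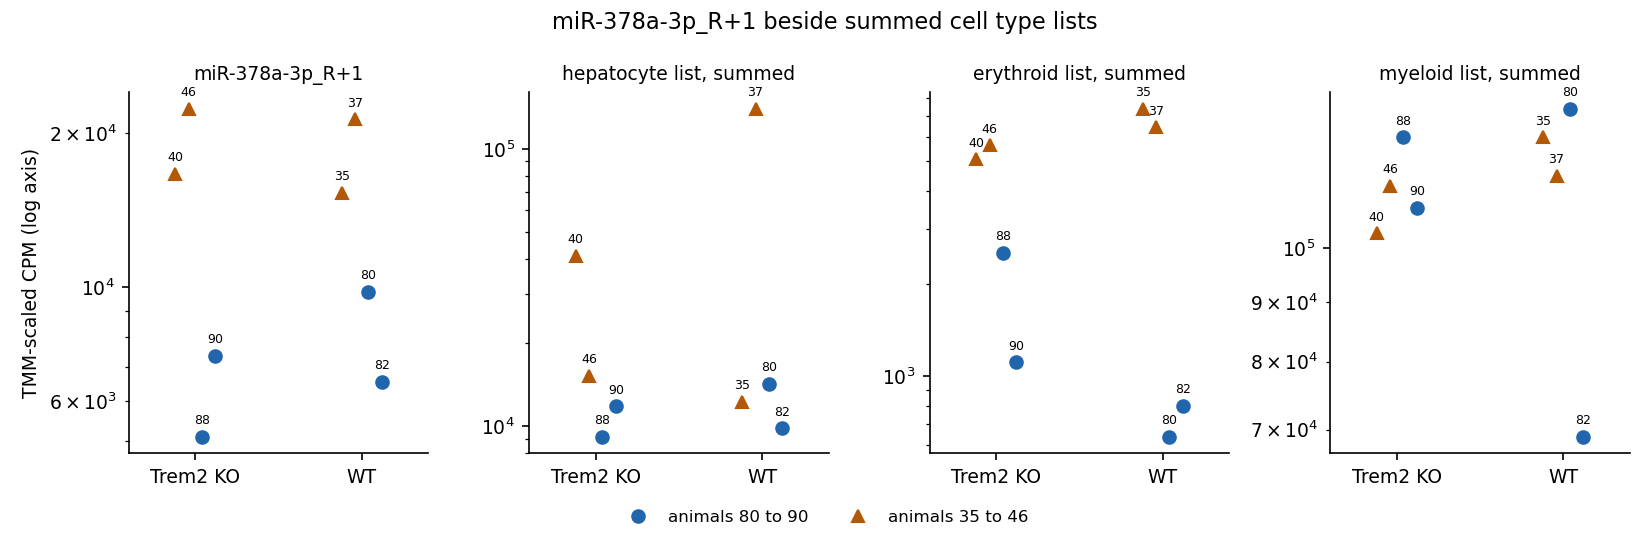
TMM-scaled CPM of miR-378a-3p_R+1 and the summed level of the hepatocyte, erythroid and myeloid miRNA lists in each library, with KO left of WT and symbols for the number ranges (log axes). The erythroid sums of range 80 to 90 (636 to 2516 CPM) lie below those of range 35 to 46 (5060 to 7387 CPM), and WT 37 stands alone in the hepatocyte list at 139454 CPM.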

How the data were processed

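Small RNA of sorted Kupffer cells was sequenced from 8 mice. For the authors' trimming, aligner, miRNA database and genome build: not given in the sources used here. Expected counts per entry stood in the raw columns of the deposited table, with 12.0% of the values not whole (tolerance 1e-06), and were rounded before count tests. The deposited normalized columns held a signal, the raw value times 1 constant factor per library (0.456 to 1.66).

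Entries were filtered with filterByExpr, scaled by TMM and fitted with the edgeR (4.0.16) quasi-likelihood test, with Benjamini-Hochberg adjustment over all 627 tested entries at 0.05; limma (3.58.1) and DESeq2 (1.42.0) were alternatives. Standard errors came from the quasi-likelihood F statistic. Log2 ratios were tested by exact permutation over libraries (scipy 1.17.1). Leaving out 1 library at a time for list entries and for the most similar entries was added after the values were seen. The scripts were tested on simulated data. Wilson intervals (95%) and the level of 3 counts cover counting error only. Titles number each mouse separately, so p-values measure the spread between mice. Each number range is a single group of mice, so the range p-values do not cover the spread between such groups.

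The members, lists and number ranges were chosen with earlier results of these data known. Beside the 5 members, the rule for names took the 5 most similar entries that averaged 100 CPM or more, the 2 most abundant tested entries of each cell type list and the 3 most abundant of the metabolism list; entries called in a cell type list were also named after their values were seen. Precursor positions came from GENCODE M21 (GRCm38), and sequences of 3 of the 4 genes from RefSeq (GRCm38.p6).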

Additional observations from a re-analysis of the deposited data

How the results depend on the processing

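No alternative called a miR-378 entry for genotype, and 4 of the 5 were called between the number ranges in every alternative but the one without both WT 37 and KO 46, which called 3. The genotype intervals of the main fit all include 0 and reach from -1.87 to 2.23 for miR-378c_R-1, and the sign of some differences moved. The KO minus WT log2 difference of miR-378a-3p_R+1 was 0.0088 with library totals alone. That of miR-378d_1ss6CA was -0.095 with the number range as a block, -0.0043 with identical sequences merged, and -0.042 and -0.041 by limma-trend with 1 and 10 added to the deposited values. Leaving out 1 library at a time gave -0.46 to 0.28 for miR-378a-3p_R+1, -0.26 to 0.094 for miR-378a-5p, -0.28 to 0.83 for miR-378b_R-1, -0.45 to 1.04 for miR-378c_R-1 and -0.40 to 0.36 for miR-378d_1ss6CA. The log2 ratio of miR-378a-3p_R+1 ranged from -0.20 to 0.25 over miR-378a-5p and from -0.57 to 0.087 over miR-378c_R-1. The cause was not tested. Between the ranges the whole table had 129 to 222 calls with 1 library left out (129 without WT 37), 70 without WT 37 and KO 46, and 183 to 276 otherwise, against 203. The number of tested entries moved too, from 619 to 708 with 1 library left out and from 394 to 1234 otherwise, against 627. Library totals in place of TMM moved the median range difference of all entries to 0.16, against -0.04, and the members' median to -1.47, against -1.60; the calls then split into 129 higher and 88 lower, against 104 and 99. With 1 library left out no range ratio could pass 0.05, since the smallest p is 0.0571. No paired analysis was possible because the labels do not say which KO and WT mice came from the same litter. Depth limits miR-378b_R-1 most, at 16.0 counts in KO 88.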
